A study of Arabidopsis thaliana with 10 samples.

Results

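Genes of jasmonate signalling and plant defence, 4 in number, are described here across the ecotypes Col and C24 of Arabidopsis thaliana in the cold: JMT (AT1G19640), ORA47 (AT1G74930), PDF1.2b (AT2G26020) and PDF2.1 (AT2G02120). Each was measured by 1 probe set that the annotation ties to exactly 1 gene, so that 4 of 13513 probe sets of that kind, among 22746 without controls, are covered. Col is the accession of the reference genome and C24 is another natural accession. There were 5 groups of 2 Affymetrix arrays each: Col kept at room temperature or for 24 h at 4 °C, and C24 kept at room temperature or for 3 h or 24 h at 4 °C. No group of Col plants at 3 h was analysed here. No treatment other than cold and no transgene is named, and all plants grew on plates of MS medium in a chamber set to 23 and 18 °C. The labels name leaf as the tissue of 20-day-old seedlings, while the text for the series speaks of 14-day-old ones. That text describes the 2 arrays per group as biological replicates, without saying whether plants were pooled.

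Jasmonates are fatty-acid-derived hormones made after wounding, insect feeding and other stress. The active conjugate lets the receptor COI1 remove JAZ repressor proteins, which frees transcription factors such as MYC2 and its relatives. One arm of the response, driven by MYC factors, turns on wound genes, and another arm, which needs ethylene as well, turns on antimicrobial proteins. JMT is the methyltransferase that turns jasmonic acid into volatile methyl jasmonate. ORA47 is an AP2/ERF transcription factor that binds and activates genes of jasmonate synthesis. PDF1.2b belongs to the PDF1.2 defensins, the usual reporters of the ethylene and jasmonate arm. PDF2.1 belongs to another branch of the plant defensins, small cysteine-rich peptides, which is not known for induction by jasmonate.

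The 4 genes were picked with results of all comparisons known, so their levels are given as a description and without a test. Among called probe sets with 1 gene, PDF2.1 ranked 7 among the rises of Col after 24 h, ORA47 ranked 8 among the falls of C24 after 3 h, and PDF1.2b ranked 1 among the rises of C24 from 3 h to 24 h. The highest rank of JMT was 30, also from 3 h to 24 h. Every value is an RMA signal, a background-corrected and quantile-normalised summary of a probe set on the log2 scale, and every difference is one of log2 signals. Whether the probes match C24 transcripts as well as those of Col was not examined. Differences between the ecotypes, here and below, are therefore differences of signal, and their size on the RNA scale is not shown. With 2 arrays to a group, precision is limited by their number. The files hold no detection call. A signal below the lower quartile of its own array, which lay between 4.48 and 4.52, is therefore said to be in the background range, and is not shown to be above background.

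Replicate arrays had correlations across probe sets of 0.997 to 0.998. The root mean square distance between group means ran from 0.541, between C24 at 3 h and at 24 h, to 0.824, between C24 at room temperature and Col at 24 h. Between the ecotypes it was 0.761 at room temperature and 0.604 after 24 h. Markers of the labelled leaf tissue were high: 4 of 9 listed leaf markers had a probe set of their own, none of them was near background on any array, and the antenna protein gene LHCB4.1 had group means of 13.58 to 14.01. Root markers were present too, with 3 of 8 measured (the root glucosidase PYK10 and the root hair expansins EXPA7 and EXPA18) and none under the lower quartile on any array. Their summed linear signal ran from 6891 to 8003 in Col at room temperature, 4890 to 5141 in Col after 24 h, 1608 to 1638 in C24 at room temperature, 5974 to 6063 after 3 h and 3147 to 3192 after 24 h. This sum is nearly all PYK10, with group means of 10.61 to 12.81, beside 4.73 to 6.48 for EXPA7 and 5.10 to 7.14 for EXPA18. C24 after 3 h was above Col after 24 h for PYK10 (12.53 and 12.25). It was below for EXPA7 (5.34 and 5.95) and EXPA18 (5.76 and 6.11). In such bulk samples, fewer cells of a type and less RNA per cell cannot be told apart.

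**Figure D1:**
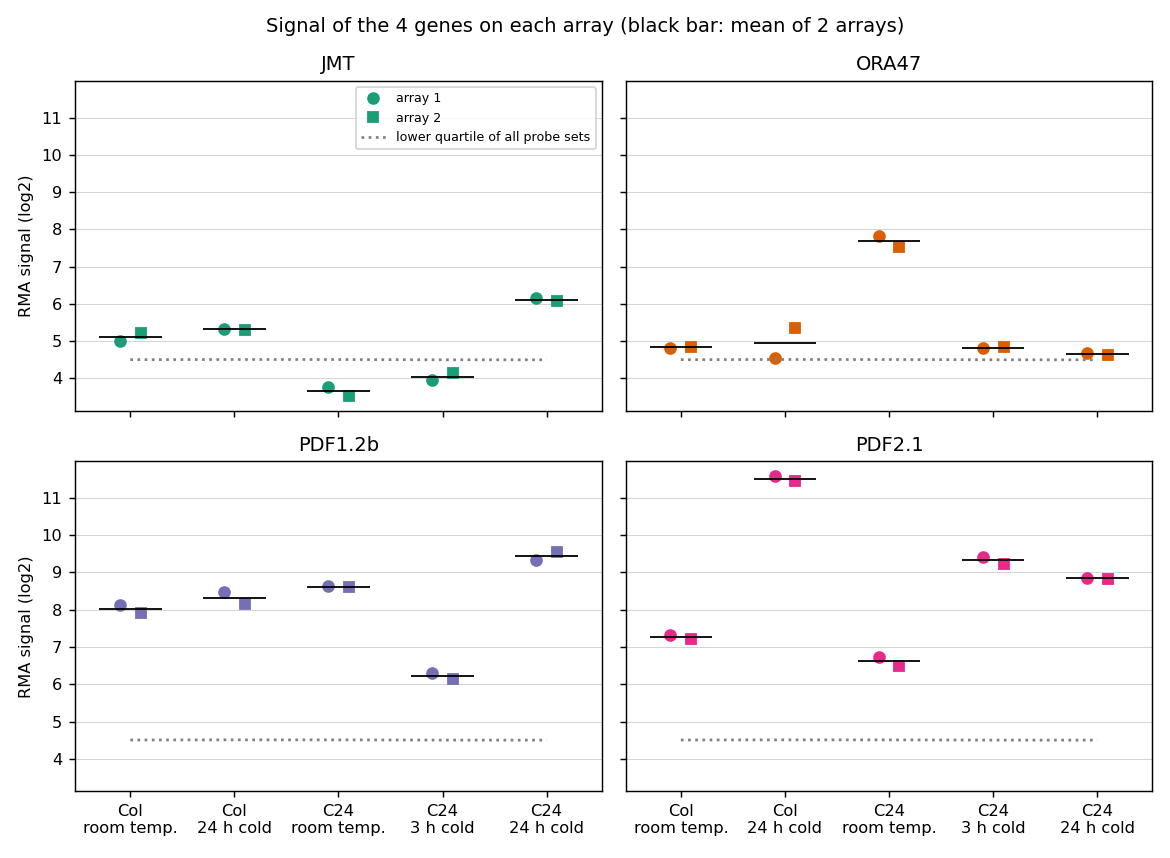
RMA signal (log2) of JMT, ORA47, PDF1.2b and PDF2.1 on each of the 10 arrays, with circles and squares for replicates 1 and 2, a black bar for the mean of the group and a dotted line for the lower quartile of the arrays. JMT lies under that line on the C24 arrays at room temperature and 3 h, ORA47 is raised at 7.68 only in C24 at room temperature, PDF1.2b is lowest at 6.22 in C24 after 3 h, and PDF2.1 is highest at 11.51 in Col after 24 h.

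JMT was dim in every group and differed most within C24. On the Col arrays it stood at 5.002 and 5.21 at room temperature and at 5.33 and 5.30 after 24 h of cold. On the C24 arrays it stood at 3.78 and 3.53 at room temperature, at 3.96 and 4.13 after 3 h and at 6.16 and 6.07 after 24 h. The lowest 4 arrays were thus those of C24 at room temperature and 3 h, all in the background range, and the highest pair was that of C24 after 24 h, which was still below the array median. Ordered by mean, the groups ran from C24 at room temperature (3.66 ± 0.18, SD, n = 2) through C24 after 3 h (4.05 ± 0.12), Col at room temperature (5.11 ± 0.15) and Col after 24 h (5.32 ± 0.02) to C24 after 24 h (6.12 ± 0.07). No neighbouring pair in that order had overlapping arrays, although those of Col at room temperature and after 24 h were only 0.21 apart with an SE of 0.10. In C24 the level after 24 h of cold was above that at room temperature by 2.46 ± 0.10 (SE) and above that at 3 h by 2.07 ± 0.10. Since the lower levels in these differences lie in the background range, their size on the RNA scale is not shown. The 24 h response of C24 was larger than that of Col by 2.25 ± 0.15. C24 minus Col was -1.45 at room temperature and 0.80 after 24 h, so that the order of the ecotypes turned.

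ORA47 stood out on 1 pair of arrays. It was at 7.83 and 7.53 on the C24 arrays at room temperature, at 4.81 and 4.84 after 3 h of cold and at 4.67 and 4.63 after 24 h. The Col arrays gave 4.82 and 4.84 at room temperature and 4.54 and 5.35 after 24 h. All 8 arrays outside the C24 room temperature group thus lay above the lower quartile, between the percentiles 25.4 and 36 of all probe sets. The Col arrays after 24 h, at 4.54 and 5.35, were the lowest and the highest of them. Ordered by mean, C24 after 24 h (4.65 ± 0.03, SD, n = 2), C24 after 3 h (4.82 ± 0.02), Col at room temperature (4.83 ± 0.01) and Col after 24 h (4.95 ± 0.58) came close together, followed by C24 at room temperature (7.68 ± 0.21). The arrays of C24 after 3 h overlapped those of Col at room temperature, and those of Col after 24 h spanned the other low groups. From room temperature, the difference in C24 was -2.86 ± 0.20 (SE) after 3 h and -3.03 ± 0.20 after 24 h, and the step between these times was -0.17 ± 0.20. The SE of the fit pools the spread of all 5 groups, so the split Col arrays after 24 h (SD 0.58) widen it for ORA47. It is thus not the spread of the C24 arrays at 3 h and 24 h, with SDs of 0.02 and 0.03. Both comparisons with room temperature share the C24 room temperature arrays, and so does the ecotype difference of 2.85 ± 0.20 at room temperature. The lower levels in these differences lie close to the lower quartile, so their size on the RNA scale is not shown. Against Col at room temperature the cold C24 arrays were not low: their means were 4.82 and 4.65 beside 4.83. In Col, the difference after 24 h was 0.11 ± 0.20, with overlapping arrays, and without Col 24 h replicate 2 it turned to -0.30. Without that array the ecotype difference after 24 h also turned, from -0.29 to 0.12.

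PDF1.2b was at its lowest early in the cold in C24. The C24 arrays gave 8.64 and 8.60 at room temperature, 6.29 and 6.15 after 3 h and 9.33 and 9.55 after 24 h. The Col arrays gave 8.12 and 7.92 at room temperature and 8.47 and 8.16 after 24 h. The arrays of C24 after 3 h were far below all others and those of C24 after 24 h above all others. Ordered by mean, the groups ran from C24 after 3 h (6.22 ± 0.10, SD, n = 2) through Col at room temperature (8.02 ± 0.14), Col after 24 h (8.31 ± 0.22) and C24 at room temperature (8.62 ± 0.03) to C24 after 24 h (9.44 ± 0.15). The Col groups, neighbours in this order, nearly overlapped (8.12 at the top of one and 8.16 at the bottom of the other), and their difference was 0.30 ± 0.12 (SE). In C24 the level at 3 h was 5.27-fold below that at room temperature (-2.40 ± 0.12 on the log2 scale) and that at 24 h was 9.29-fold above that at 3 h (3.22 ± 0.12), so that after 24 h it lay 0.82 ± 0.12 above room temperature. The 24 h response was larger in C24 than in Col by 0.52 ± 0.16. The ecotypes differed by 0.60 at room temperature and by 1.12 after 24 h, with C24 higher each time.

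The probe set of PDF1.2b carries the suffix that Affymetrix gives to sets with probes that also match other transcripts. PDF1.2a, PDF1.2b and PDF1.2c are near-identical copies, so its signal cannot be assigned to PDF1.2b alone. A separate probe set is annotated to PDF1.2a (AT5G44420), and its test is independent of the choice of members only as far as the probes differ. PDF1.2a stood at 6.21 and 6.66 in C24 at room temperature, at 5.84 and 5.70 after 3 h and at 7.42 and 7.39 after 24 h, beside 6.80 and 6.67 in Col at room temperature and 7.43 and 7.21 after 24 h. By limma it fell by 0.67 ± 0.13 (SE) after 3 h in C24 (adjusted p = 0.00152) and rose by 1.63 ± 0.13 from 3 h to 24 h (adjusted p = 1.58e-06). It rose after 24 h in both ecotypes, by 0.97 in C24 (adjusted p = 7.34e-05) and 0.59 in Col (adjusted p = 0.00306), and the difference of these responses, 0.38 ± 0.19, missed the threshold (adjusted p = 0.134). Over the 10 arrays the signals of the PDF1.2a and PDF1.2b sets had a Pearson correlation of 0.826, given as a description since arrays of a group share their plants' treatment.

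PDF2.1 was higher in every cold group than at room temperature, and highest in Col. The Col arrays gave 7.32 and 7.21 at room temperature and 11.58 and 11.44 after 24 h. The C24 arrays gave 6.74 and 6.49 at room temperature, 9.43 and 9.23 after 3 h and 8.86 and 8.83 after 24 h. No group overlapped another. Ordered by mean they ran from C24 at room temperature (6.62 ± 0.18, SD, n = 2) through Col at room temperature (7.26 ± 0.08), C24 after 24 h (8.84 ± 0.03) and C24 after 3 h (9.33 ± 0.14) to Col after 24 h (11.51 ± 0.09). The difference after 24 h was 4.25 ± 0.10 (SE) in Col, 19.0-fold, and 2.23 ± 0.10 in C24, 4.69-fold. In C24 the difference was already 2.71 ± 0.10 after 3 h, and the step from 3 h to 24 h was -0.49 ± 0.10. The response of C24 minus that of Col at 24 h was -2.02 ± 0.14. After 24 h C24 stood 6.35-fold below Col (-2.67 ± 0.10 on the log2 scale), beside -0.65 ± 0.10 at room temperature.

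**Figure D2:**
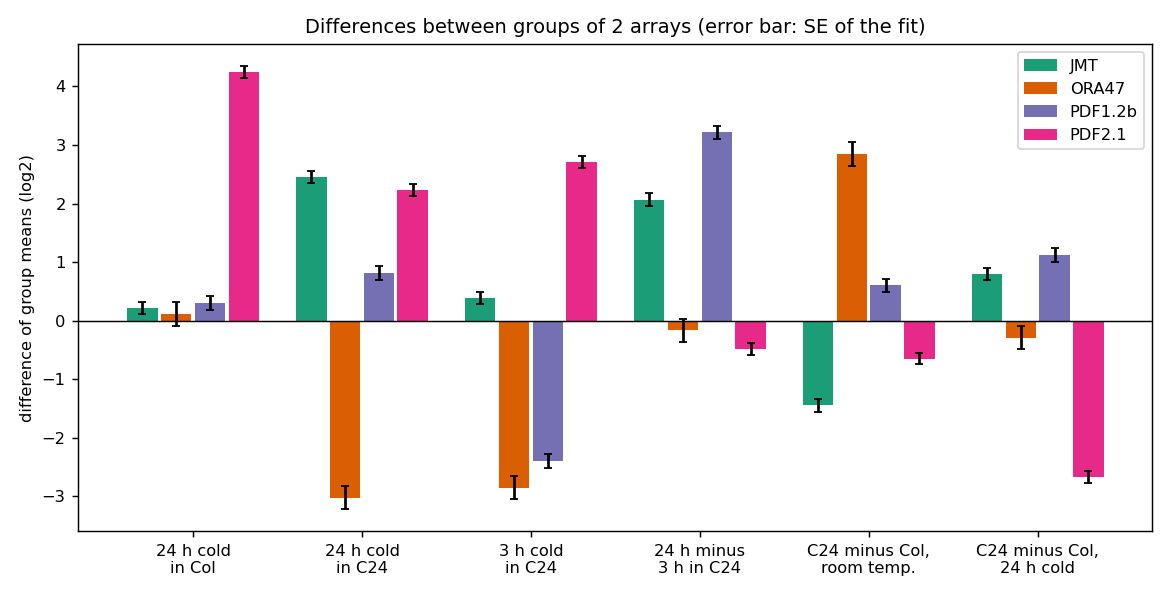
Differences of group means (log2) for the 4 genes in 6 comparisons, with the SE of the fit as error bars. The bar of PDF2.1 in Col reaches 4.25, ORA47 has bars of -3.03 and -2.86 in cold C24 beside 2.85 between the ecotypes at room temperature, and PDF1.2b changes sign from -2.40 at 3 h to 3.22 between 3 h and 24 h.

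Side by side, the 4 genes did not share a pattern. Over the 10 arrays their pairwise Pearson correlations ran from -0.68 between JMT and ORA47 to 0.555 between JMT and PDF1.2b, and the defensins PDF1.2b and PDF2.1 stood at -0.145. The arrays of the groups compared did not overlap for 3 of 4 genes in Col after 24 h, against 72.1% of all probe sets, and for 4 of 4 in C24 after 24 h (72.5% of all) and after 3 h (71.5%). The same held for 4 of 4 between 3 h and 24 h in C24 (70.8%), for 4 of 4 between ecotypes at room temperature (77.8%) and for 3 of 4 after 24 h of cold (73.7%). Since the genes were chosen from these comparisons, nothing is read from the counts. In Col after 24 h, the differences of JMT, ORA47 and PDF1.2b were larger in size than 46.7%, 29.2% and 57.2% of those of all probe sets, while that of PDF2.1 was larger than 99.9%. In C24 after 24 h the figures were 98.9% for JMT, 99.5% for ORA47, 84.6% for PDF1.2b and 98.4% for PDF2.1.

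For each gene, the 3 genes most like it were those with the highest Pearson correlation over the 10 arrays among 3588 probe sets with 1 gene whose group means spanned at least 1 log2 unit. For JMT they were CHIL (AT5G05270), a chalcone isomerase-like protein, at 0.98, SDH1-1 (AT5G66760), a subunit of mitochondrial succinate dehydrogenase, at 0.977 and AT4G29410 at 0.976. CHIL also had its lowest mean in C24 at room temperature, 7.78, and its highest in C24 after 24 h, 11.38. For ORA47 they were AT2G03550 at 0.985, AT3G53250 at 0.984 and AT5G58787 at 0.976. AT2G03550 stood at 9.84 in C24 at room temperature and between 8.26 and 8.45 elsewhere. AT3G53250 had a mean of 4.84 in C24 at room temperature and of 3.54 to 3.64 elsewhere, below the lower quartile of the arrays. The correlations with ORA47 rest largely on the raised pair of C24 arrays at room temperature. For PDF1.2b they were AT5G13240 at 0.978, AT2G41090 at 0.962 and AT2G25510 at 0.953, and AT5G13240 shared the low 3 h level of C24, 6.85, beside 8.28 to 9.08 in the other groups. For PDF2.1 they were EXLA2 (AT4G38400), an expansin-like protein, at 0.99, the dehydrin COR47 (AT1G20440) at 0.988 and AT2G32020 at 0.98. COR47, a cold-induced protein of freezing tolerance, had means of 11.48 and 14.32 in Col at room temperature and after 24 h, and of 11.28, 12.62 and 12.77 in C24 at room temperature, 3 h and 24 h.

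The other genes of the pathway were taken from lists of 87 genes of jasmonate synthesis, turnover, perception, transcription factors, wound outputs, ethylene-dependent outputs and defensins. Of these, 20 had a probe set of their own. None of the 15 listed genes of perception, COI1 and the JAZ repressors among them, was measured in that way, nor was any of 8 listed genes of salicylate defence, and both lists are not analysed here. Of the 20, 6 lay in the background range on all 10 arrays and 10 never did. A gene is called where the adjusted p of limma, a linear model with a spread estimate pooled over genes, was below 0.05 after Benjamini-Hochberg adjustment over all 22746 probe sets. By that rule 8 of the 20 were called in cold Col at 24 h (40%, against 49.1% of all probe sets), 3 of them higher (23.2% of all probe sets were) and 5 lower (25.9%). In cold C24 at 24 h 10 were called (50% against 49.5%), 7 higher (24.1%) and 3 lower (25.4%). In C24 at 3 h 10 were called (50% against 45.7%), 7 higher (22.5%) and 3 lower (23.2%). From 3 h to 24 h 9 were called (45% against 44.3%), 3 higher (21.7%) and 6 lower (22.5%). Between the ecotypes 10 were called at room temperature (50% against 56%), 5 higher in C24 (32.7%) and 5 lower (23.4%). In the cold at 24 h 8 were (40% against 49.3%), 2 higher in C24 (28.1%) and 6 lower (21.2%). The 24 h responses of the ecotypes differed for 9 (45% against 39.5%), 6 more positive in C24 (20.4%) and 3 more negative (19.1%). The shares called in either direction are near those of all probe sets. The median difference of the 20 genes was 0.09 in Col after 24 h, -0.00 in C24 after 24 h and 0.03 after 3 h, beside 0.01, -0.02 and -0.04 over all probe sets.

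Of 18 listed genes of jasmonate synthesis 3 were measured: the lipase DGL, the ligase OPCL1, which activates a jasmonate precursor for beta-oxidation, and AIM1, a multifunctional enzyme of peroxisomal beta-oxidation. OPCL1 stood at 8.36 and 8.64 in C24 at room temperature and at 9.60 on each array after 3 h. It rose by 1.099 ± 0.11 (SE) after 3 h (limma adjusted p = 9.60e-06) and fell back by 1.11 by 24 h (adjusted p = 8.20e-06), where its difference from room temperature was -0.01. In Col it fell by 0.75 after 24 h (adjusted p = 0.000157). AIM1 fell after 24 h in both ecotypes, by 0.70 in Col and 1.21 in C24 (limma adjusted p = 8.28e-06 and 6.28e-08). Its smaller fall of 0.23 in C24 after 3 h (adjusted p = 0.0204) lost the call without any single array of the groups compared, with adjusted p from 0.0615 to 0.0808. DGL lay in the background range on every array and was called in no comparison, with adjusted p from 0.241 to 0.826.

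The list for jasmonate turnover had 4 measured genes of 15: the jasmonate-regulated gene JRG21 and AT3G11180, AT5G05600 and AT2G38240, for which the annotation gives a locus code only. AT5G05600 had the largest called difference at 3 h among the 20 genes. It stood at 5.54 and 5.24 in C24 at room temperature, at 8.72 and 8.70 after 3 h and at 5.85 and 6.07 after 24 h, beside 6.66 to 6.90 on the 4 Col arrays. It rose by 3.32 ± 0.12 (SE), or 9.99-fold, after 3 h (limma adjusted p = 2.37e-09) and fell by 2.75 from 3 h to 24 h (adjusted p = 1.17e-08). At room temperature C24 minus Col was -1.34 (adjusted p = 1.83e-06). In Col it differed by 0.07 after 24 h (adjusted p = 0.639). AT3G11180, in the background range throughout, fell by 0.56 in Col (adjusted p = 0.000769). JRG21 and AT2G38240 were called in no comparison with room temperature. JRG21 was called lower in C24 than in Col after 24 h, at -0.52, a call between mostly background-range signals that was lost when the first Col array at 24 h was left out (limma adjusted p = 0.188) or the first C24 array at 24 h (0.137).

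Among the transcription factors, 3 of 17 were measured: the MYC2 relatives MYC3 and MYC4, which act beside MYC2 in jasmonate responses, and EIN3, the central factor of ethylene signalling. MYC4 stood at 7.04 and 7.29 in C24 at room temperature, at 7.53 and 7.60 after 3 h and at 8.05 and 7.98 after 24 h, beside 7.06 and 6.92 in Col at room temperature and 6.76 and 6.84 after 24 h. It rose in C24 by 0.40 ± 0.09 (SE) at 3 h and by 0.85 ± 0.09 at 24 h (limma adjusted p = 0.00438 and 1.23e-05), and stood at -0.19 in Col (adjusted p = 0.115). The difference of the 24 h responses was 1.04 ± 0.13 (adjusted p = 7.01e-05). EIN3 fell in C24 by 0.35 at 3 h and by 0.57 at 24 h (adjusted p = 0.00566 and 0.000166) and stood at 0.11 in Col (adjusted p = 0.32). Its responses differed by -0.68 ± 0.12 (adjusted p = 0.00091). MYC3 was called in no comparison within an ecotype. It was higher in C24 than in Col at room temperature by 0.53 (limma adjusted p = 0.00706), a call lost without Col replicate 1 (0.0797) or C24 replicate 1 (0.0541).

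Of the wound outputs 1 of 8 was measured, the thionin THI2.1, an antimicrobial peptide induced by methyl jasmonate. It lay in the background range on all arrays, and its difference in C24 after 24 h was -0.35 with a limma adjusted p of 0.04999, a call that was lost in 9 of the 10 fits with 1 array left out. Of the ethylene-dependent outputs 1 of 3 was measured, the osmotin-like protein OSM34. It was at 11.23 and 11.22 in Col at room temperature and at 10.68 and 10.62 after 24 h. In C24 it was at 6.88 and 6.98 at room temperature, at 9.82 and 9.71 after 3 h and at 8.14 and 8.12 after 24 h. It was thus lower on every C24 array than on any Col array, 19.6-fold at room temperature (-4.29 ± 0.07, SE, limma adjusted p = 7.55e-12) and by -2.52 on the log2 scale after 24 h (adjusted p = 6.77e-10). It fell by 0.58 in cold Col (adjusted p = 4.83e-05) and rose in C24 by 2.83 at 3 h (adjusted p = 3.75e-10) and by 1.202 at 24 h (adjusted p = 8.62e-08).

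Besides the PDF1.2b and PDF2.1 genes, 8 of 11 listed plant defensins were measured, and the called ones did not move as a block. In Col after 24 h 3 rose (PDF1.2a, PDF2.2 and PDF2.3) and 1 fell (PDF2.5), in C24 after 24 h 4 rose and none fell, and in C24 after 3 h 3 rose and 1 fell. In percent, 50% were called in each of these comparisons, against 49.1%, 49.5% and 45.7% of all probe sets. PDF1.1, PDF2.4 and PDF2.6 lay in the background range on every array. The called difference of PDF1.1 at 3 h in C24, 0.35 (limma adjusted p = 0.00695), was thus between signals not shown to be above background, and it was lost without C24 3 h replicate 1 (0.0725).

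PDF2.1 lies in a cluster of defensin genes: in the RefSeq annotation of TAIR10.1, PDF2.3 (AT2G02130) is its direct neighbour, PDF2.2 (AT2G02100) has 2 annotated genes between it and PDF2.1, and PDF2.6 (AT2G02140) has 3. PDF2.2 stood at 11.63 and 11.58 in Col at room temperature and at 13.93 and 13.82 after 24 h, a rise of 2.27 ± 0.07 (SE, limma adjusted p = 1.46e-09). In C24 it was at 12.91 and 12.95 at room temperature, at 12.98 and 12.86 after 3 h and at 13.42 and 13.43 after 24 h, a rise of 0.50 (adjusted p = 0.000145) that was not there at 3 h (-0.01, adjusted p = 0.934). Its responses at 24 h differed by -1.77 ± 0.10 between the ecotypes (adjusted p = 1.56e-07), beside -2.02 for PDF2.1. PDF2.3 rose by 0.53 in Col and by 1.00 in C24 at 24 h and by 0.91 in C24 at 3 h (limma adjusted p = 0.000146, 6.62e-07 and 2.44e-06), and its responses differed the other way, by 0.47 ± 0.11 (adjusted p = 0.00497). PDF2.6 was not called. Over the 10 arrays PDF2.1 had Pearson correlations of 0.844 with PDF2.3, 0.707 with PDF2.2 and 0.417 with PDF2.6. JMT also has a defensin close by, PDF1.4 (AT1G19610), with 2 annotated genes between them, and PDF1.4 was called in no comparison (limma adjusted p from 0.0821 to 0.76).

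**Figure D3:**
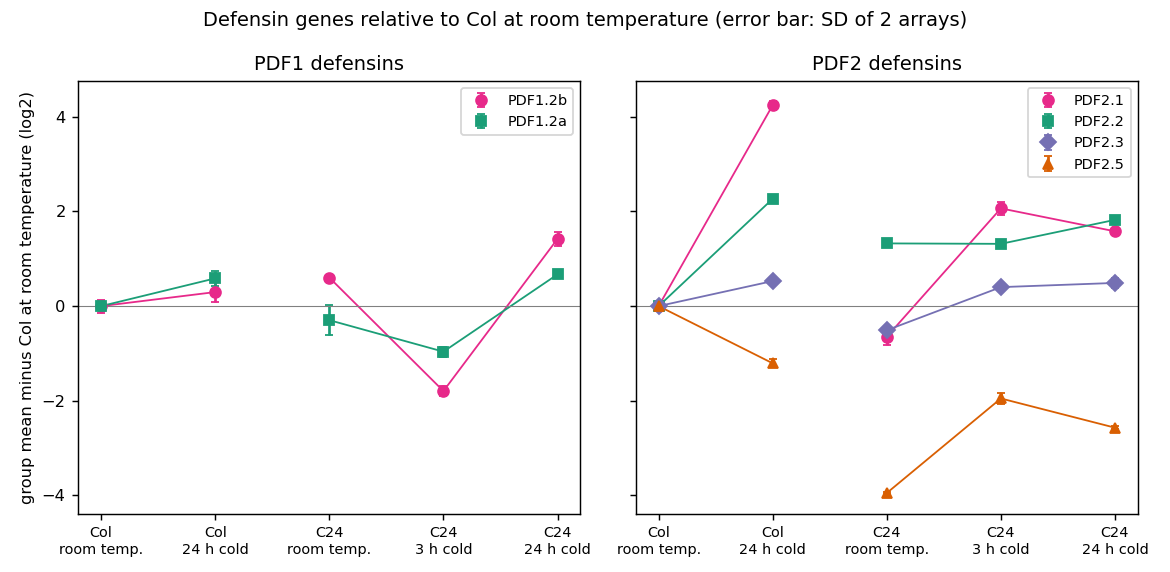
Group means of 6 defensin genes minus the mean of the same gene in Col at room temperature (log2), with the SD of the 2 arrays of the group as error bars and lines joining groups of 1 ecotype. PDF2.1 and PDF2.2 are raised in cold Col, PDF1.2b and PDF1.2a share a low point in C24 at 3 h, and PDF2.5 is at -3.95 in C24 at room temperature.

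PDF2.5 (AT5G63660) moved in opposite directions in the ecotypes. It was at 8.06 and 8.02 in Col at room temperature and at 6.89 and 6.77 after 24 h, a fall of 1.21 ± 0.08 (SE, limma adjusted p = 2.28e-07). In C24 it was at 4.11 and 4.07 at room temperature, in the background range, at 6.01 and 6.17 after 3 h and at 5.45 and 5.49 after 24 h, with rises of 2.00 (adjusted p = 5.37e-09) and 1.38 (adjusted p = 4.92e-08). The ecotype difference at room temperature was -3.95 (adjusted p = 1.24e-11) and the difference of responses was 2.59 ± 0.11 (adjusted p = 1.34e-08). The 3 measured root markers had the same signs as PDF2.5 and OSM34: 3 of 3 were lower in C24 than in Col at room temperature (-2.20 for PYK10, -2.04 for EXPA18 and -1.75 for EXPA7), as were 23.4% of all probe sets. In C24 3 of 3 rose after 3 h (22.5% of all) and 2 of 3 after 24 h (24.1%), and 3 of 3 fell in cold Col (25.9%). The part of root RNA in these differences was not tested. PDF2.1 had the opposite sign to the root markers in cold Col (4.25) and the same sign as all 3 in the other comparisons of 2 groups: 2.71 and 2.23 in C24 at 3 h and 24 h, -0.49 from 3 h to 24 h, and -0.65 and -2.67 between the ecotypes at room temperature and after 24 h. AT5G05600 also shared their signs in C24 and between the ecotypes, but not in cold Col, where it differed by 0.07. Here too the part of root RNA was not tested.

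The relatives of JMT in the SABATH family of methyltransferases gave a wider range. Of 21 listed, 14 had a probe set of their own, most of them known to the annotation by locus code only, and 6 lay in the background range on all arrays. In cold Col 7 were called, 2 higher and 5 lower (50% against 49.1% of all probe sets). In cold C24 5 were called at 24 h, 2 higher and 3 lower (35.7% against 49.5%), and 5 at 3 h, 3 higher and 2 lower (35.7% against 45.7%). AT3G21950 fell in every comparison with room temperature: by 1.68 ± 0.08 (SE) in Col, by 1.79 in C24 at 3 h and by 1.97 at 24 h (limma adjusted p = 2.21e-08, 1.30e-08 and 3.52e-09). AT5G38020 stood at 9.86 and 9.66 in Col at room temperature and at 7.32 and 7.13 after 24 h, a difference of -2.54 (adjusted p = 5.21e-09). In C24 it stood at 5.77 and 5.70 at room temperature, at 6.46 and 6.61 after 3 h and at 6.77 and 6.90 after 24 h, a rise of 1.104 by 24 h (adjusted p = 2.35e-06). AT5G37990 fell by 2.61 in Col (limma adjusted p = 3.05e-08) and rose by 1.69 in C24 at 3 h (adjusted p = 1.07e-06). Its C24 minus Col difference was -4.36 at room temperature (limma adjusted p = 2.45e-10). These signs were also those of the 3 measured root markers, whose part was not tested. The C24 arrays of AT5G37990 at room temperature, 4.51 and 4.54, were at the lower quartile and are not shown to be above background. The size of its differences from that level is therefore not shown on the RNA scale. AT5G38780 rose by 0.65 in C24 at 3 h (limma adjusted p = 0.00382) and fell by 1.51 from 3 h to 24 h (adjusted p = 7.33e-06). Between the ecotypes at room temperature 8 of the 14 were called (57.1% against 56% of all probe sets), 5 higher in C24, such as AT3G21950 at 0.92 (limma adjusted p = 1.84e-06), and 3 lower, such as AT5G38020 at -4.03 (adjusted p = 5.79e-11). Together with the relatives of ORA47 the count was 10, and 6 without Col room temperature replicate 1. BSMT1, which makes methyl salicylate and methyl benzoate, lay in the background range on every array and was not called, with limma adjusted p from 0.234 to 0.967.

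**Figure D4:**
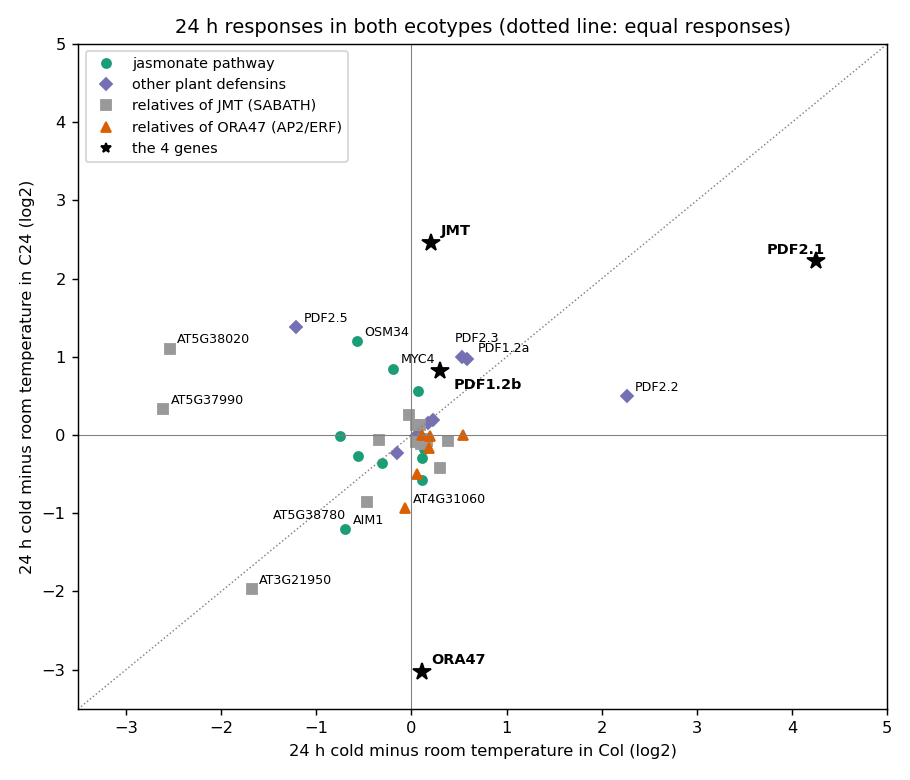
Difference after 24 h of cold in Col (horizontal axis) and in C24 (vertical axis), both in log2 units, for the 4 genes (stars), the other 20 pathway genes and defensins, 14 SABATH relatives of JMT and 6 AP2/ERF relatives of ORA47. JMT and ORA47 lie close to the vertical zero line with C24 differences of 2.46 and -3.03, PDF2.1 lies below the line of equal responses, and PDF2.5, OSM34 and AT5G38020 lie in the upper left quadrant.

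The AP2/ERF relatives of ORA47 did not follow it as a group. Of 9 listed, 6 were measured, each known to the annotation by its locus code, and 2 of them lay in the background range throughout. In C24 after 3 h 1 of 6 was called (16.7% against 45.7% of all probe sets) and after 24 h 2 (33.3% against 49.5%), all lower, and in Col 1 was called higher (16.7% against 49.1%). AT4G31060 came nearest to ORA47, with a mean of 6.02 ± 0.23 (SD, n = 2) for C24 at room temperature and between 5.09 and 5.43 in the other groups. It fell in C24 by 0.64 ± 0.12 (SE) at 3 h and by 0.93 at 24 h (limma adjusted p = 0.000864 and 3.75e-05), was 0.58 above Col at room temperature (adjusted p = 0.00129), and stood at -0.06 in cold Col (adjusted p = 0.696). AT1G44830 fell by 0.50 in C24 after 24 h (adjusted p = 0.00347), to the background range. AT1G77640 was the 1 called rise in Col, at 0.54 (limma adjusted p = 0.0102), lost without Col room temperature replicate 1 (0.104) or Col 24 h replicate 1 (0.0597).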

How the data were processed

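Total RNA was hybridised to 10 Affymetrix arrays of 1 colour in 5 groups of 2, assigned from the sample titles. Values were used as deposited: log2 signals from GCOS and RMA, per the submitters' processing notes. Versions, and whether the arrays were normalised together, are not given in the sources used here. All value columns were mapped to a sample. The tables hold 22810 probe sets, of which 64 are controls and the remaining 22746 were tested, with no filter and no pseudocount. The probe annotation gives exactly 1 gene for 13513 probe sets and several for 503; 13436 of the first matched a RefSeq locus (TAIR10.1).

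The model had a mean for each of the 5 groups and used all 10 arrays. It was run in limma 3.58.1 (lmFit, then eBayes, two-sided) under R 4.3.3. Adjustment was by Benjamini-Hochberg within each of 7 comparisons, with 0.05 as the threshold. The fit was tested on simulated data for the comparison of 24 h cold in Col. Of 100 probe sets changed by 0.5 on the log2 scale 59 were called, and of 100 changed by 1, 98 were. Among unchanged probe sets 9 were called. Far fewer probe sets changed in the simulation than were called in the data, so these shares need not hold there. A gene that was not called may thus still differ by a small amount. The members and gene lists were chosen with earlier results of these data known. Named were the 4 members, all measured genes of lists of at most 5, up to 2 called rises and 2 called falls per longer list and comparison, and the 3 genes most like each member. Uncalled or dim defensins, BSMT1 and LHCB4.1 were named after their values were seen. Alternatives were other normalisations, a replicate block, a variance trend, dim probe sets left out, fewer arrays and a 2-fold threshold. No reference sequence was used here.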

Additional observations from a re-analysis of the deposited data

Results flagged for a closer look

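For 16 of the 40 measured pathway genes and relatives, the 24 h response of C24 differed from that of Col by the test of the difference itself (limma, adjusted p below 0.05). This is 40%, near the 39.5% of all probe sets. For 4 of them both responses were called in opposite directions. Those 4 were PDF2.5 (difference 2.59, from -1.21 in Col to 1.38 in C24), OSM34 (1.78, from -0.58 to 1.202), AT5G38020 (3.64, from -2.54 to 1.104) and AT4G36470 (-0.72, from 0.30 to -0.42). The call of AT4G36470 in Col was lost without Col room temperature replicate 1 (limma adjusted p = 0.266), Col 24 h replicate 1 (0.0669) or Col 24 h replicate 2 (0.134). PDF2.5 was in the background range in C24 at room temperature. Larger or more positive responses in C24 were also found for AT5G37990 (2.94), MYC4 (1.04), OPCL1 (0.74), AT5G05600 (0.49), PDF2.3 (0.47) and NAMT1 (0.28). The call of AT5G05600 was lost on repeated quantile normalisation (limma adjusted p = 0.0639). It was also lost without several single arrays, with a difference of 0.34 without C24 room temperature replicate 2. NAMT1 lay in the background range on every array. Its call was lost under the replicate block (limma adjusted p = 0.0639), with arrays centred on their medians (0.0615) and with a variance trend (0.122). The NAMT1 call was also lost without several single arrays, with a difference of 0.22 without C24 24 h replicate 1. Smaller or more negative responses in C24 were found for PDF2.2 (-1.77), AT4G31060 (-0.87), EIN3 (-0.68), AT1G44830 (-0.56, lost without several single arrays, with adjusted p up to 0.0742), AIM1 (-0.51) and AT5G38100 (-0.46). Groups of 2 arrays are too small for a check of single outlying arrays.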

How the results depend on the processing

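Under every alternative that left the threshold as it was, the counts of called pathway genes and of all called probe sets stayed within 1.5 times those given. The relatives of JMT and ORA47 called in Col after 24 h went from 8 to 5 without Col room temperature replicate 1 or Col 24 h replicate 1, and those between ecotypes at room temperature from 10 to 6 without Col room temperature replicate 1. With a change of at least 2-fold required too, 2 of the 20 pathway genes remained called in Col after 24 h, 3 in C24 after 24 h, 4 after 3 h, 4 between 3 h and 24 h, 4 between ecotypes at room temperature, 3 after 24 h and 4 for the difference of responses. Over all probe sets the counts then were 1906, 2496, 1617, 1641, 2543, 1847 and 2554 in the same order, fewer by construction. Leaving out 1 array at a time gave 8 to 9, 9 to 10, 8 to 10, 8 to 10, 8 to 11, 6 to 9 and 8 to 11 pathway genes. Without both C24 room temperature arrays, an alternative chosen after seeing the data, 8 were called in Col, 9 between 3 h and 24 h and 8 between ecotypes after 24 h, the same counts. The log2 differences of the 4 genes kept their sign under 2 other scalings, the replicate block and every array left out, apart from ORA47 without Col 24 h replicate 2 (-0.30 in Col after 24 h, 0.12 between ecotypes after 24 h); without replicate 1 these were 0.52 and -0.70. Replicate numbers are not stated to mark a shared batch. The correlation of replicate differences between groups ran from -0.115 to 0.119, which cannot exclude that same-numbered arrays shared growth or handling. With the replicate number as a block, 11 pathway genes were called in C24 after 24 h and 11 between ecotypes at room temperature, in place of 10 and 10. Signals in the background range limit what is shown of JMT and of the 10 of 20 pathway genes with at least 1 array there. PDF2.5 is among these genes, and 6 were there on all arrays. For ORA47, low levels close to that range limit the size shown for its differences from C24 at room temperature.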
